A study of Mus musculus with 10 samples.

Results

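CC chemokines are small secreted proteins that draw leukocytes along a gradient by binding G protein-coupled receptors of the Ccr family. Fibroblasts make several of them when inflammatory signals such as interleukin-1 act through NF-kappaB, and macrophages make others as part of their resting state. In the lung they bring in monocytes, eosinophils, lymphocytes and dendritic cells. The genes described here are the 9 CC chemokines Ccl2, Ccl3, Ccl4, Ccl5, Ccl7, Ccl8, Ccl9, Ccl11 and Ccl20, taken as a named list from 18193 measured genes. Each was read by its brightest single-gene probe set. All 9 were measured, 8 by 1 probe set each and Ccl9 by 2.

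Expression was measured on 10 Affymetrix mouse arrays, 5 of cultured normal lung fibroblasts and 5 of lung fibroblasts named carcinoma-associated (CAF). Per the labels, cells of both groups came from mouse lungs, were expanded over 10 to 14 days in medium with 10% serum, and spent a further night replated before lysis. The strain, age, genotype and tumour model are not given in the sources used here, so neither group can be tied to an allele or driver. By their titles, arrays within a group are biological replicates; whether they came from separate mice is not stated, so p-values measure the spread between these cultures. Values are log2 expression from robust multi-array averaging (RMA), which gives no detection call. The array medians over all probe sets were 6.73 to 6.79, so a value near 7 may be background. The upper quartile was 9.047 to 9.122 on the normal and 9.215 to 9.288 on the CAF arrays. The lower quartile was 5.488 to 5.547 and 5.421 to 5.467. Bright probe sets thus tended to read higher and dim ones lower on the CAF arrays. The deposited values carry this shift, which bears on counts of bright or dim genes, and quantile normalisation was run as an alternative. Label codes begin with vs on normal replicates 1 to 3 and with ls on all other arrays; their meaning is not given.

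The cultures carried the RNA of fibroblasts and of other cells. The fibroblast list of 12 markers had means of 12.43 to 14.12 per array in the normal group and 12.27 to 13.75 in CAF, with Col1a2, a type I collagen chain, at 14.86 to 15.44 and 14.61 to 15.29, and Acta2, smooth muscle actin, at 14.98 to 15.45 and 15.25 to 15.41. The 22 macrophage markers had means of 9.09 to 12.49 and 10.02 to 12.32, and 0 of 22 passed the test between groups. The 5 mesothelial markers had means of 5.87 to 11.57 and 7.21 to 10.00, with Upk1b and Upk3b brightest, and 0 of 5 passed. Each of these 5 had a lower mean in CAF, with a median log2 difference of -0.48. The largest was that of Lrrn4, named after its values were seen, at -2.99 (SE 1.15, limma adjusted p = 0.170). Normal replicate 2 had the lowest macrophage mean, 9.09, and the lowest mesothelial mean, 5.87. The 8 neutrophil markers had a mean of 11.14 on normal replicate 3 and 6.56 to 7.34 on the other arrays. Of the 8, 2 had a positive difference between CAF and normal and 6 a negative one. Its brightest member, S100a8, was not confined to that array, at 7.87 to 14.18 on the normal and 9.69 to 12.74 on the CAF arrays. Camp reached 12.88 on the normal and 10.04 on the CAF arrays. Lymphocyte, mast cell and endothelial markers had means of 5.67 to 6.51, below the array medians, and dendritic cell markers of 6.58 to 7.09. The 2 brightest endothelial markers lay above the medians. Egfl7 was at 8.74 to 9.29 on the normal and 8.19 to 8.64 on the CAF arrays, and Kdr at 7.85 to 9.30 and 7.54 to 8.01. The epithelial mean was 6.52 to 7.92, but its members Krt8 and Krt18, keratins that mesothelial cells also make, reached 11.37 and 11.35 on normal replicate 3. Fewer cells of a type and less RNA per cell cannot be told apart in such bulk cultures.

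The comparison of CAF with normal fibroblasts asks whether the cultured tumour-derived cells express more CC chemokine RNA. None of the members passed the test over all genes, and the highest differences were those of the monocyte attractants Ccl7 and Ccl2, 1.69 ± 0.45 and 1.61 ± 0.41 (log2 difference CAF minus normal ± SE, 5 arrays per group). Of the 9 members, 0 were called (limma, Benjamini-Hochberg adjusted p under 0.05), where 0.753% of all genes were called and 0.561% were called higher in CAF; 3 had an unadjusted p under 0.05. These 3, Ccl2, Ccl7 and Ccl20, were higher in CAF, as were 10.5% of all genes at that unadjusted threshold, with 22.3% in either direction. The balance of calls depended on the scaling, with 102 of 137 called genes higher in CAF as deposited, 43 of 92 after quantile normalisation and 250 of 285 after median centring. An adjusted p under 0.1 was reached by 2 of 9, Ccl2 and Ccl7, and by 3.67% of all genes in that direction. The difference was 1 or more on the log2 scale for 5 of 9 members (1.64% of all genes), and the groups did not overlap for 1 of 9, Ccl2 (2.97% of all genes, counting those higher in CAF). The median difference of the members was 1.06, with 7 positive and 2 negative, beside -0.04 over all genes.

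**Figure D1:**
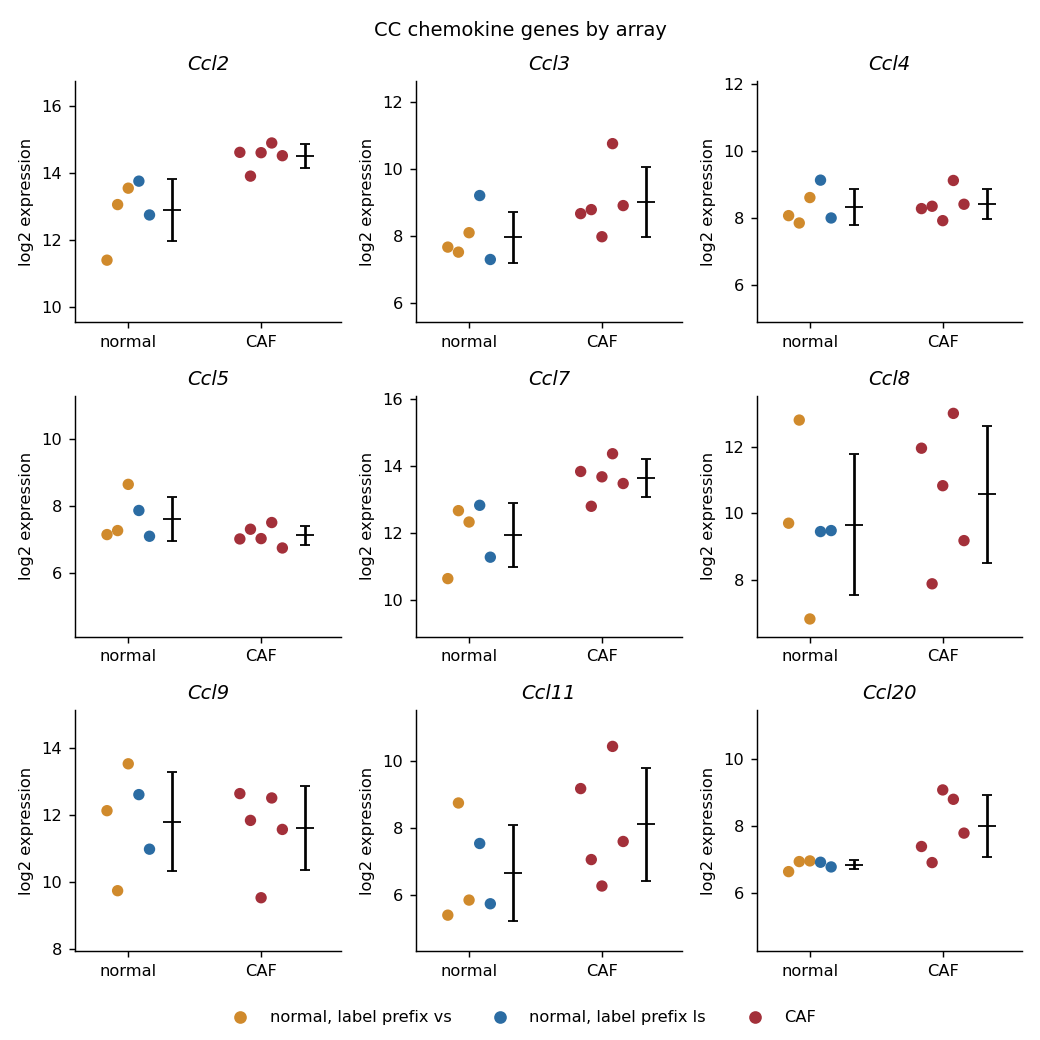
Log2 expression (y axis, each panel spanning the same range of log2 units) of the 9 CC chemokine genes on each of 10 arrays. Points are arrays coloured by group and label prefix, with the mean and SD beside them (n = 5); Ccl2 is the member whose groups do not overlap, with normal arrays up to 13.76 and CAF arrays from 13.91.

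Most of these genes lie side by side in the mouse genome. In the RefSeq gene table of assembly GRCm38.p6, used here only for gene order, 8 of the members lie on chromosome 11 in a pair of groups and Ccl20 lies on chromosome 1. The first group runs Ccl2, Ccl7, Ccl11, Ccl12, Ccl8, Ccl1 with 0 other protein-coding genes between them. The other runs Ccl5, Ccl9, Ccl6, Ccl3, Ccl4, and 25 protein-coding genes separate it from Ccl1. Members of the group around Ccl2 act mainly on monocytes and eosinophils. Those of the group around Ccl3 act mainly on monocytes, macrophages and T cells.

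Ccl2 is the main ligand of Ccr2 and draws monocytes out of the blood. Its log2 values were 11.40, 13.06, 13.55, 13.76 and 12.75 on normal replicates 1 to 5 and 14.62, 13.91, 14.61, 14.90 and 14.52 on CAF replicates 1 to 5. All 5 CAF arrays lay above the highest normal array, and normal replicate 1 was the lowest. The group means were 12.91 ± 0.93 and 14.51 ± 0.37 (SD, n = 5), a 3.04-fold difference that missed the threshold (limma adjusted p = 0.0829, 95% interval of the log2 difference 0.69 to 2.52). The exact permutation p was 0.00794, the lowest possible with 5 arrays in each group, and adjusted over all genes it was 0.111, the value of every gene whose groups do not overlap, so that no gene could pass by that test. Against the ls normal arrays alone the difference was 1.25 ± 0.33 and against the vs arrays 1.84 ± 0.46.

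Ccl7 is the neighbour of Ccl2 and attracts monocytes through the same receptor and others. Its values were 10.64, 12.67, 12.33, 12.83 and 11.28 on the normal arrays and 13.84, 12.80, 13.68, 14.37 and 13.48 on the CAF arrays. CAF replicate 2 lay just below the highest normal array and the other 4 CAF arrays above it. The means were 11.95 ± 0.95 and 13.63 ± 0.57 (SD, n = 5), 3.22-fold apart (limma adjusted p = 0.0877) (1.58 when only ls normal arrays were used and 1.75 with only vs ones). Ccl2 and Ccl7 passed the test where arrays were weighted by their quality in limma, with adjusted p-values of 0.0325 and 0.0366; that fit called 8.78% of all genes, 5.40% higher in CAF. Over all their other alternatives the adjusted p was 0.0721 to 0.339 for Ccl2 and 0.0739 to 0.329 for Ccl7.

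Ccl11, eotaxin, attracts eosinophils through Ccr3 and is a known product of fibroblasts. Its values were 5.41, 8.76, 5.86, 7.55 and 5.75 on the normal arrays and 9.19, 7.07, 6.28, 10.45 and 7.61 on the CAF arrays. Its groups overlapped, with CAF replicates 1 and 4 above every normal array and normal replicate 2 above CAF replicates 2, 3 and 5. The difference was 1.45 ± 0.90 (limma adjusted p = 0.359), and the interval of -0.55 to 3.46 spans 0. It was 0.87 without CAF replicate 4 and 1.98 without normal replicate 2. Normal replicates 1, 3 and 5 and CAF replicate 3 lay below the array median, where values may be background.

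Ccl8, a further monocyte chemoattractant protein, had the widest spread of the 9. The normal arrays read 9.71, 12.79, 6.85, 9.46 and 9.49, and the CAF arrays 11.95, 7.90, 10.83, 12.99 and 9.19. Both groups held high and low arrays, and the difference of 0.91 ± 1.19 lay within the spread between arrays (SDs of 2.11 and 2.05; limma adjusted p = 0.677). It was 0.21 without normal replicate 3 and 1.70 without normal replicate 2.

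Ccl8 and Ccl11 were low where mesothelial markers were high. This was examined after the data had been seen, with the means of the mesothelial and fibroblast lists set against each of the 9 members beside the relation to Tyrobp, 27 relations in all. The mesothelial mean ran against Ccl11 with r = -0.83 (permutation p = 0.00321) and rho = -0.88 (p = 0.00148), and against Ccl8 with r = -0.81 (p = 0.00473) and rho = -0.68 (p = 0.0339). The adjusted permutation p of both r values over the 27 was 0.0639, and that of the rho of Ccl11 was 0.0400. With each group centred on its own mean, r was -0.82 and -0.80 (adjusted p = 0.0923, exact within groups). Without normal replicate 2 and CAF replicate 4, the arrays farthest from the median of the mesothelial mean, r was -0.80 for Ccl11 (exact p = 0.0162, adjusted p = 0.146) and -0.61 for Ccl8 (exact p = 0.106, adjusted p = 0.477).

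Ccl2 and Ccl7 had r of -0.51 and -0.69 with the mesothelial mean (permutation adjusted p = 0.490 and 0.148). Without the same 2 arrays r was -0.88 and -0.93 (exact adjusted p = 0.0268 and 0.0241), so the relation pooled over the groups was tighter over the remaining 8 arrays. With each group centred on its own mean, over all arrays, r was -0.48 and -0.76 and missed the threshold (exact adjusted p = 0.837 and 0.0981). With the mesothelial mean as a term in the model, the difference between CAF and normal was 1.42 ± 0.39 for Ccl2, 1.36 ± 0.32 for Ccl7, 0.75 ± 0.57 for Ccl11 and 0.00 ± 0.79 for Ccl8 (limma adjusted p = 0.10, 0.080, 0.467 and 1.00). The mesothelial mean was itself 9.62 ± 2.26 in the normal group and 8.64 ± 1.15 in CAF (SD). The term may therefore take up part of the difference between the groups, and the 2 cannot be told apart here. For the fibroblast mean, r was 0.74 with Ccl8 (permutation p = 0.0147, adjusted p = 0.0994) and 0.54 without the 2 arrays farthest from its median (exact p = 0.163). With Ccl11 it was 0.59 (permutation adjusted p = 0.334) and 0.39 without those 2 arrays (exact p = 0.361). With each group centred, r was 0.82 for Ccl8 and 0.77 for Ccl11 (exact adjusted p = 0.0923 and 0.0938). These were similar in size to the centred values for the mesothelial mean.

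Ccl20 binds Ccr6 and attracts dendritic cells and lymphocytes. Its values were 6.65, 6.95, 6.97, 6.93 and 6.79 on the normal arrays, close to the array median, and 7.40, 6.92, 9.09, 8.81 and 7.80 on the CAF arrays. The normal arrays lay close together (SD 0.14), while 4 of the 5 CAF arrays lay above all of them and CAF replicate 2 did not. The difference was 1.15 ± 0.38, 2.21-fold (limma adjusted p = 0.129; 1.15 against either kind of normal array). Since the normal values may be background, the size of this difference is uncertain.

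Promoter sequences were available for 4 of the 9 members in the RefSeq-derived table of GRCm38.p6 (Ccl3, Ccl8, Ccl9 and Ccl20), each with 250 bases before and 50 after the gene's start. Those of Ccl20 and Ccl9 are shown because, of the 4, these hold the NF-kappaB consensus, the site through which interleukin-1 and other signals induce such genes. The Ccl20 promoter is chr1:83116516-83116815 on the plus strand and that of Ccl9 chr11:83578587-83578886 on the minus strand, both written 5′ to 3′ along the gene. Capitals mark every match, on either strand, to the NF-kappaB consensus, the AP-1 motif TGANTCA, the C/EBP motif TTNNGCAA, the TATA box TATAAA or the PU.1 core GAGGAA.
Ccl20: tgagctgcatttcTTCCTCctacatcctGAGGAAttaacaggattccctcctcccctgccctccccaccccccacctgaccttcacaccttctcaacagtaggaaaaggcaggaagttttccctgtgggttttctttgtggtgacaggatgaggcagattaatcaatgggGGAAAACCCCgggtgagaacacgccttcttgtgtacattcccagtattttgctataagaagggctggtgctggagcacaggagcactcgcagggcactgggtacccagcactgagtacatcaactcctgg
Ccl9: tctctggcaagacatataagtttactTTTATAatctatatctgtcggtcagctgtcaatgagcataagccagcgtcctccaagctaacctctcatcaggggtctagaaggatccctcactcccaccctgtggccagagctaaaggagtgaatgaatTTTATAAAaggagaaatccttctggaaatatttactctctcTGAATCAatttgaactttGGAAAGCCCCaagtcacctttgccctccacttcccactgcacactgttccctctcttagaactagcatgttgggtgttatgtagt
In Ccl20 the NF-kappaB match lies 80 to 71 bases before the start and the other capitals are PU.1 cores. In Ccl9 the NF-kappaB match lies 35 to 26 bases before the start, an AP-1 match 53 to 47 bases before it, and the remaining capitals are TATA boxes, of which a pair overlap on opposite strands. The promoter of Ccl8 held a TATA box and a PU.1 core and that of Ccl3 a PU.1 core. Over the 32851 promoters of the table, the NF-kappaB consensus occurred in 8.46%, AP-1 in 7.81%, C/EBP in 10.8%, the TATA box in 13.6% and the PU.1 core in 28.3%, and a match describes the letters only, not binding.

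**Figure D2:**
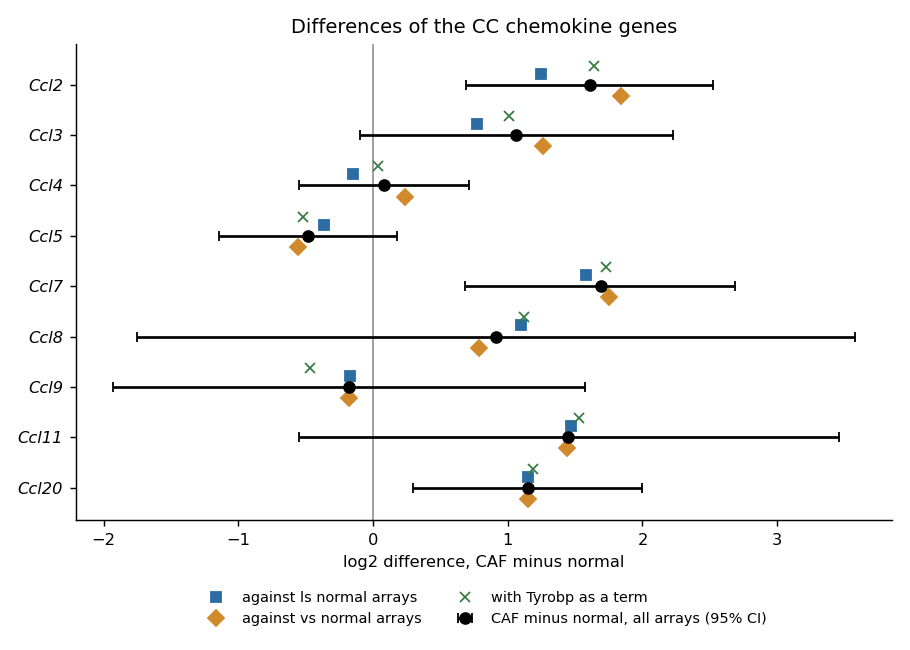
Log2 difference between CAF and normal arrays (x axis) for the 9 CC chemokine genes (y axis). Black points and bars are the limma difference and its 95% interval over all arrays; squares, diamonds and crosses are the difference against ls normal arrays, against vs normal arrays and with Tyrobp as a term. The intervals of Ccl2, Ccl7 and Ccl20 lie above 0 before any adjustment over genes.

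Ccl3 and Ccl4 are the macrophage inflammatory proteins, which attract monocytes and T cells; Ccl3 binds Ccr1. Ccl3 read 7.67, 7.52, 8.10, 9.21 and 7.30 on the normal arrays and 8.67, 8.79, 7.98, 10.76 and 8.91 on the CAF arrays. CAF replicate 4 was the highest array and normal replicate 4 the highest of its group, and 1 CAF array lay above all normal arrays. The difference of Ccl3 was 1.06 ± 0.52 (limma adjusted p = 0.261), and 0.63 without CAF replicate 4.

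Ccl4 read 8.08, 7.86, 8.62, 9.14 and 8.01 on the normal arrays and 8.29, 8.36, 7.93, 9.13 and 8.42 on the CAF arrays. The groups covered almost the same range, and the difference was 0.08 ± 0.28 (limma adjusted p = 0.884; interval -0.55 to 0.71), which became -0.03 after quantile normalisation. Ccl3 and Ccl4 nevertheless moved together from array to array, as given below.

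Ccl5, which attracts T cells and monocytes, read 7.14, 7.26, 8.64, 7.86 and 7.09 on the normal arrays and 7.01, 7.30, 7.02, 7.50 and 6.74 on the CAF arrays. Most values lay near the array median. The highest was that of normal replicate 3, the array on which the neutrophil markers were also highest, with S100a9 at 14.29 against 5.46 to 7.05 on the other normal arrays (S100a9 was chosen after its values were seen). The difference was -0.48 ± 0.29 over all arrays (limma adjusted p = 0.355) and -0.22 without that array; the part of the neutrophil markers in it was not tested.

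Ccl9, a Ccr1 ligand made by macrophages and other myeloid cells, read 12.12, 9.73, 13.52, 12.60 and 10.97 on the normal arrays and 12.63, 11.83, 9.52, 12.50 and 11.56 on the CAF arrays. Each group held arrays from below 10 to above 12, and the difference was -0.18 ± 0.78 (limma adjusted p = 0.911). The less bright of its probe sets gave -0.02 ± 0.80. The sign of this difference changed when normal replicate 3, normal replicate 4 or CAF replicate 3 was left out (0.26, 0.02 and 0.34).

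Each member was also set against Tyrobp, the adaptor protein of activating receptors on myeloid cells, which served as the marker of macrophages in these cultures. Tyrobp itself read 14.25, 10.37, 13.93, 12.72 and 11.23 on the normal arrays and 14.22, 12.18, 11.72, 12.66 and 13.61 on the CAF arrays. It differed widely between arrays of either group and little between the group means (0.38 ± 0.80, limma adjusted p = 0.805).

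Of the 9 members, Ccl9 ran closest with Tyrobp. Over the 10 arrays r was 0.77 (permutation p = 0.00901, adjusted p = 0.0811 over the 9 relations) and rho was 0.73 (permutation p = 0.0206, adjusted p = 0.185). With each group centred on its mean r was 0.79 (exact p = 0.0137, adjusted p = 0.123), with prefix and group centred 0.82 (exact p = 0.0222, adjusted p = 0.20), and without normal replicates 1 and 2, the arrays farthest from the Tyrobp median, 0.71 (exact p = 0.0455, adjusted p = 0.410). The relation therefore had the same direction in each form and missed the adjusted threshold in each. A higher r with Tyrobp was found for 2.23% of the other genes.

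The other 8 members had r between -0.32 (Ccl8) and 0.35 (Ccl4) with Tyrobp, with permutation p-values of 0.320 or more and an adjusted p of 0.983 each. For Ccl2, Ccl7, Ccl11 and Ccl20 r was 0.02, -0.01, -0.08 and -0.08. Normal replicate 1 had the highest Tyrobp and the lowest Ccl2, Ccl7, Ccl11 and Ccl20 of all arrays; without it r was 0.55 for Ccl2 and 0.38 for Ccl7. With Tyrobp as a term in the model the differences between CAF and normal were 1.64 for Ccl2, 1.73 for Ccl7, 1.53 for Ccl11 and 1.19 for Ccl20, as large as without it, and 0 of 9 members were called. With the mean of all 22 macrophage markers as the term they were 1.68, 1.76, 1.55 and 1.22. Tyrobp differed by only 0.38 between the group means, and the macrophage mean was 10.68 in the normal group and 11.07 in CAF. Neither term could therefore move these differences much, and which cells made the RNA was not tested.

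**Figure D3:**
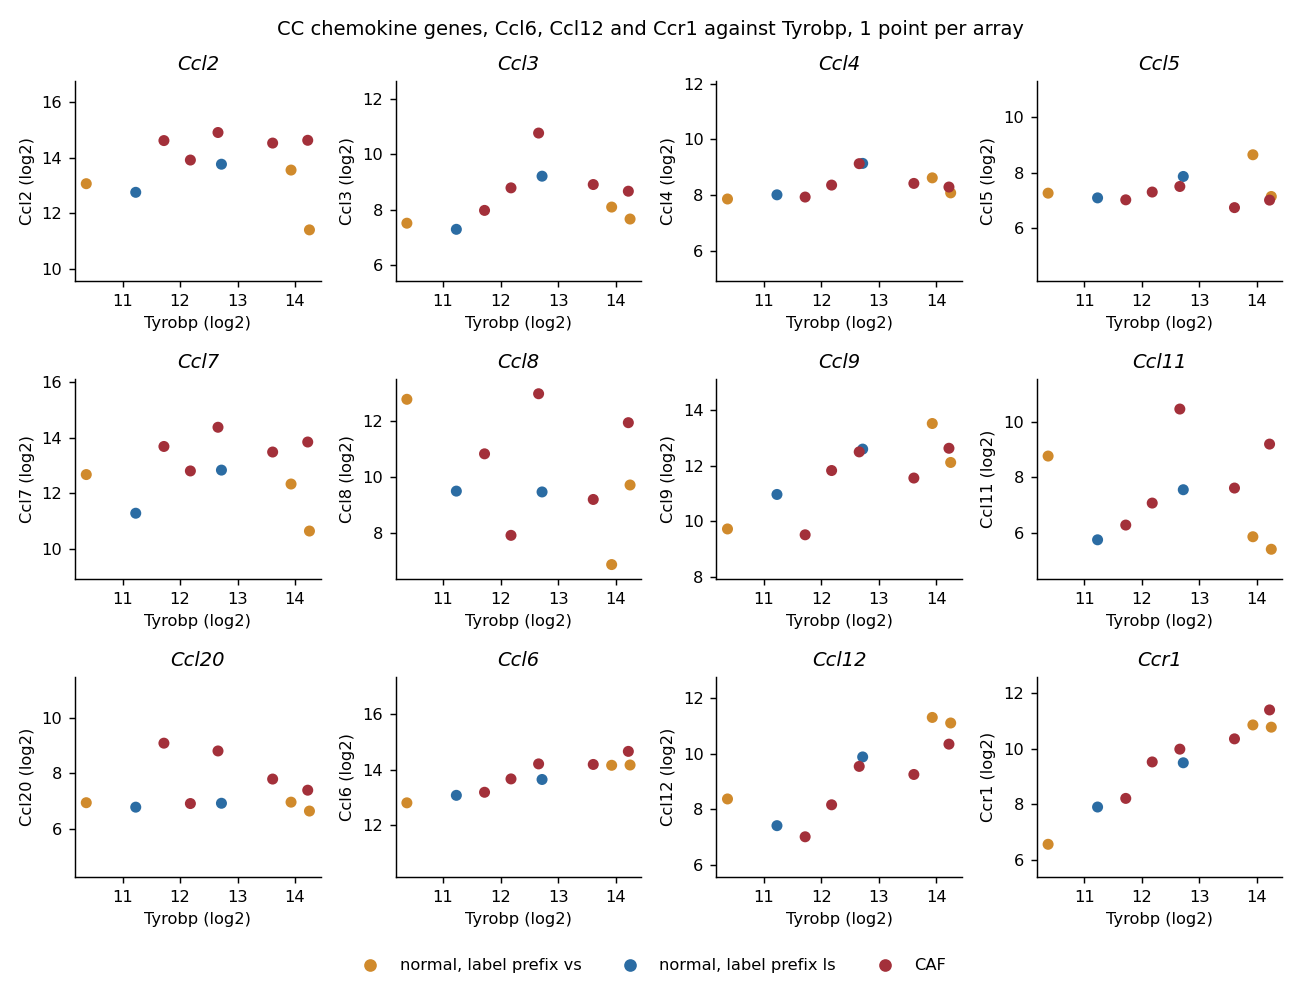
Log2 expression of the 9 CC chemokine genes, Ccl6, Ccl12 and Ccr1 (y axis, same range of log2 units in each panel) against that of Tyrobp (x axis, log2), 1 point per array, coloured by group and label prefix. Ccl6, Ccl12 and Ccr1 climb with Tyrobp in both groups (r of 0.93, 0.82 and 0.97), Ccl9 less tightly (0.77), and Ccl2, Ccl7, Ccl11 and Ccl20 show r within 0.08 of 0.

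Among the CC chemokines that are not members, 9 of 12 listed genes were measured, and 0 passed the test between groups, with a median difference of -0.04. An unadjusted p under 0.05 in limma was reached by 1 (22.3% of all genes in either direction). The largest differences were -0.75 ± 0.87 for Ccl12, a Ccr2 ligand that lies between Ccl11 and Ccl8, and 0.41 ± 0.34 for Ccl6, a Ccr1 ligand that lies between Ccl9 and Ccl3. In a fit over all genes with group and Tyrobp as terms, added after the data had been seen, 2 of these 9 had a positive slope on Tyrobp that passed the test (adjusted p under 0.05), as did 1.26% of all genes (1.38% with a slope of either sign). Ccl6 had 0.41 ± 0.05 log2 units per log2 unit of Tyrobp (limma adjusted p = 0.00299) and Ccl12 0.99 ± 0.15 (adjusted p = 0.0170). Ccl24, an eosinophil attractant named after its values were seen, had 0.46 ± 0.11 and missed the threshold (adjusted p = 0.0874). The slope of Ccl9 was 0.78 ± 0.20 (adjusted p = 0.135), and 0 of the 9 members passed.

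Ccl12 read 11.10, 8.37, 11.30, 9.88 and 7.41 on the normal arrays and 10.34, 8.16, 7.01, 9.54 and 9.25 on the CAF arrays, high on the arrays with much Tyrobp in both groups. Its neighbours Ccl11 and Ccl8 had slopes of -0.20 ± 0.37 and -0.55 ± 0.47. The differences between these slopes were not tested.

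Of the receptors, 13 of 14 listed genes were measured and 0 passed the test between groups, with a median difference of -0.13. An unadjusted p under 0.05 in limma was reached by 5, of which 1 was higher in CAF (22.3% of all genes in either direction). Of the 13, 10 had a negative difference and 3 a positive one. Ccr1, the receptor of Ccl3, Ccl5, Ccl6, Ccl7 and Ccl9, had the largest difference, 0.77 ± 0.89, followed by the scavenging receptor Ackr4 with 0.39 ± 0.17 (limma adjusted p = 0.635 and 0.219). The less bright Ccr1 probe set gave 0.02 ± 0.17, with means of 4.82 and 4.84 that may be background. The Ccr1 values given here are those of the brighter probe set. Ccr1 read 10.77, 6.56, 10.85, 9.49 and 7.90 on the normal arrays and 11.39, 9.52, 8.21, 9.98 and 10.35 on the CAF arrays. It was the receptor whose slope on Tyrobp passed, 1.10 ± 0.08 (limma adjusted p = 0.000362, 1 of 13). Ccr2, the receptor of Ccl2, lay at 7.80 to 8.15 on all arrays (difference -0.19, limma adjusted p = 0.127); both it and Ccr3, at 4.42 to 4.94, were named after their values were seen. Ccr3 differed by -0.28 (limma adjusted p = 0.086). Its groups did not overlap, lower in CAF, as for 762 of all 18193 genes. The Ccr3 probe set lay below the lower quartile of its array throughout.

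A list of the route by which NF-kappaB induces CC chemokines held its ligands, receptors and subunits and also its inhibitors, and 25 of 27 genes were measured. Of these, 1 was called higher in CAF (0.561% of all genes), 0 lower, and 24 did not pass; 15 had an unadjusted p under 0.05, each higher in CAF (10.5% of all genes). The median difference was 0.33, with 20 positive, and the groups did not overlap for 7 of 25, each higher in CAF (2.97% of all genes). Besides Il1a these were Traf6 and Rel, which carry the signal, and Nfkbia, Nfkbib, Nfkbiz and Tnfaip3, which include inhibitors and feedback regulators of NF-kappaB; these 6 were named after their values were seen and missed the adjusted threshold. The gene that passed was Il1a, an interleukin-1 ligand, with 8.32, 5.75, 8.54, 9.40 and 7.80 on the normal arrays and 11.97, 10.48, 11.37, 11.09 and 12.18 on the CAF arrays (difference 3.46 ± 0.62, limma adjusted p = 0.0483). All CAF arrays lay above all normal arrays. The call sits at the threshold: the adjusted p ran from 0.0199 to 0.306 over 24 alternatives in limma, 11 of which kept the call, and the difference from 2.82 to 3.89. It was lost when normal replicate 1, 3 or 5 or CAF replicate 1, 3, 4 or 5 was left out (adjusted p of 0.0693 to 0.143), and with the replicate number as a block it was 0.186. The list mean was 9.44 to 9.75 on the normal and 9.90 to 10.23 on the CAF arrays, and that of the 9 CC chemokines 8.76 to 9.93 and 9.43 to 11.27. Both lists were chosen with earlier results of these data known, so their counts and means are given as a description only.

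The members varied together in a few pairs. Over the 36 pairs, examined after the data had been seen, 27 had a positive r and 2 passed adjustment over the pairs, and the same 2 passed with each group centred. By rho 4 passed, these 2 and the pairs of Ccl20 with Ccl2 and with Ccl7 (rho of 0.83 each, permutation adjusted p = 0.0426), whose r was 0.72 and 0.75 (permutation adjusted p = 0.092) and, with groups centred, 0.39 and 0.47 (exact adjusted p = 0.0967 and 0.202). Ccl2 and Ccl7 had r = 0.96 and rho = 0.98 (permutation p = 2e-05 and 3e-05, adjusted p = 0.00072 and 0.00108), 0.90 with groups centred (exact adjusted p = 0.0187) and 0.91 without the 2 arrays farthest from the Ccl2 median. Ccl3 and Ccl4 had r = 0.84 and rho = 0.85 (permutation p = 0.0013 and 0.00302, adjusted p = 0.0234 and 0.0426), 0.95 with groups centred (exact adjusted p = 0.0187) and 0.77 without the 2 arrays farthest from the Ccl3 median. Both of the pairs that passed by r lie within one group on chromosome 11, whereas Ccl20 is on chromosome 1. Other members of a group missed the threshold, such as Ccl5 and Ccl9 with r = 0.58 (permutation adjusted p = 0.216) and 0.15 without the 2 arrays farthest from the Ccl5 median.

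**Figure D4:**
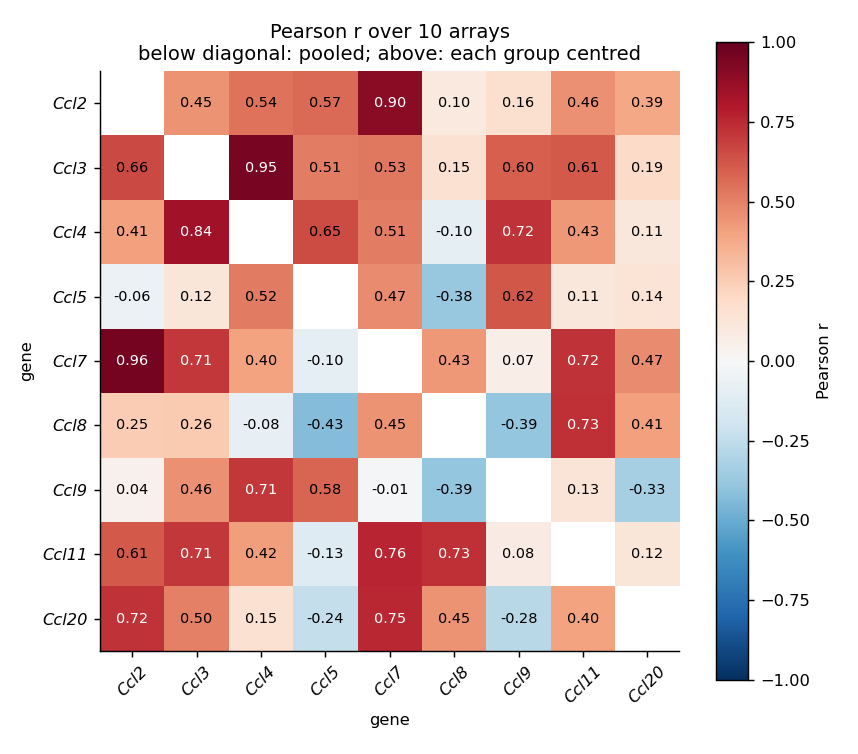
Pearson r between the 9 CC chemokine genes over 10 arrays, pooled below the diagonal and with each group centred above it; both axes list the genes and the colour scale runs from -1 to 1. Ccl2 with Ccl7 (0.96 pooled, 0.90 centred) and Ccl3 with Ccl4 (0.84 and 0.95) are the pairs whose r passed adjustment in both.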

How the data were processed

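Total RNA, 6 ug per array, was labelled with biotin and hybridised to Mouse430_2 arrays. Per the submitters' processing notes, the authors made the deposited log2 values with RMA in Affymetrix Expression Console, with limma among the tools and no versions given in the sources used here. RMA quantile-normalises probes, so differences are relative to the other genes of an array.

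Of 45101 probe sets, 64 controls were left out. Of the rest, 34945 had 1 gene symbol in the platform table, 932 had several and 9160 were not listed; symbols were updated through Entrez numbers (34741 matched). Each gene was read by the probe set of highest mean among those naming it alone, giving 18193 genes. Groups were compared with limma 3.58.1 in R 4.3.3 (lmFit, eBayes, group as the only term, 2-sided) and p-values adjusted over all genes (Benjamini-Hochberg). Correlations were tested 2-sided with scipy 1.17.1, by 100000 permutations of 10 arrays or exactly where fewer or stratified. The scripts were tested on simulated data.

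Named genes were the 9 members, Tyrobp, called genes of the lists or those with the largest difference or smallest p, the 2 brightest of a cell type list (given where its signal was clear), and the 3 genes most like each member. The members and lists were chosen with earlier results of these data known, so their counts beside the shares of all genes are a description. The number of arrays, 5 per group, limits precision. Replicate numbers are shared by the groups without a stated pairing. Alternatives covered scaling, dim genes, probe set choice, weights, blocks, prefixes, cell type markers and single arrays. Promoter sequences are from RefSeq.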

Additional observations from a re-analysis of the deposited data

Results flagged for a closer look

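No value of the 9 CC chemokine genes stood apart from its group by Dixon's criterion, in 18 groups of 5 arrays examined. The 60 genes examined were those of the naming rule above, not all of them given in the text, and S100a9. Other genes named after their values were seen were not examined. Over all 120 groups of the 60 genes, 4 held such an array, and chance gives about 5% for genes not chosen by their values. Of the 4, S100a9 was named after its values were seen, so its flag is not independent of that choice. Normal replicate 3 stood apart in the neutrophil genes S100a9, at 14.29 with the other normal arrays at 5.46 to 7.05, and Camp, at 12.88 with the others at 7.33 to 8.20. The same array had the highest Ccl5 and Ccl9 of the normal group, 8.64 and 13.52. Normal replicate 4 stood apart in En1, at 8.91 with the others at 8.30 to 8.48, and in Gsc, at 5.95 with the others at 5.59 to 5.68. En1 and Gsc are named only as the genes whose pattern is most like that of Ccl3, which was also highest of the normal arrays there, at 9.21, so these 2 are not independent of it.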

How the results depend on the processing

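The count of members called stayed at 0 over its alternatives, except that array weights called 2 (Ccl2 and Ccl7). The median difference of the members ran from 0.63 to 1.42, each less than 1 SD (of the members' median level between arrays) from the 1.06 reported. The sign held in every alternative run for Ccl2, Ccl3, Ccl5, Ccl7, Ccl11 and Ccl20, whereas that of Ccl8 was 0.00 with the mesothelial mean as a term. Ccl4 turned to -0.03 with quantile normalisation and to -0.15 with the prefix as a term or only ls normal arrays, and ran from -0.09 to 0.28 without 1 array. Ccl9 turned to 0.10 with the mesothelial mean as a term and ran from -0.69 to 0.34 without 1 array. The filter on dim genes dropped Ccl5, Ccl11 and Ccl20.

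The count of genes called, 137, was 285 with median centring, 50 with the dim filter, 235 with the most variable probe set, 46 with trend and robust, 1597 with array weights, 452 and 437 with Tyrobp or the macrophage mean as a term, 53 with the mesothelial mean, 1 against only ls normal arrays and 0 with the prefix as a term (2649 at unadjusted p below 0.05 in limma). Without 1 array it ran from 0 to 166. With the replicate number as a replicate block, 0 genes passed in limma (3017 at unadjusted p below 0.05) and 0 members (4 at an unadjusted p under 0.05). Same-numbered deviations from the group means correlated at -0.528 to 0.339. Only normal replicate 1 correlated more with its own number, at 0.339 against at most 0.187 with another. These correlations do not settle whether the numbers pair the arrays.

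The count of members related to Tyrobp stayed at 0 in its alternatives. Signs near 0 turned. Ccl2 was -0.16 with groups centred, -0.09 with prefix and group centred and -0.05 with the macrophage mean. Ccl7 and Ccl11 were both 0.37 without the 2 farthest arrays, and the rho of Ccl5 was -0.03. Without 1 array r ran from -0.14 to 0.55 for Ccl2, -0.19 to 0.30 for Ccl5, -0.23 to 0.38 for Ccl7, -0.28 to 0.12 for Ccl11 and -0.26 to 0.13 for Ccl20. The count related to the mesothelial mean, 0, was 1 by rho, 2 without the 2 farthest arrays and 0 to 3 without 1 array. The 5 arrays per group and the lack of detection calls limit what dim genes such as Ccl5 and Ccl20 can show. The cause of these changes was not tested.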

Other observations

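The genes whose pattern over the 10 arrays was most like that of a member were found by Pearson r over all other genes and are given as a description, since the highest of so many values is high by selection. For Ccl2 they were Pgm3 (0.969), an enzyme of amino sugar synthesis, Cxcl1 (0.964) and R3hcc1 (0.963), and for Ccl7 they were Cxcl1 (0.971), Ube2e2 (0.966) and Ccl2 itself (0.961). Cxcl1, which attracts neutrophils, read 8.82, 11.80, 12.60, 12.54 and 9.58 on the normal arrays and 13.73, 12.50, 13.94, 14.72 and 14.29 on the CAF arrays, so that normal replicate 1 was its lowest array, as for Ccl2 and Ccl7. For Ccl20 they were Il7 (0.961), a lymphocyte growth factor, Znrf1 (0.953) and Kif5c (0.949). For Ccl8 they were Dact3 (0.957), 4833418N02Rik (0.948) and Ackr3 (0.946), a scavenging receptor of Cxcl12, and for Ccl11 Stc1 (0.940), Dubr (0.917) and Kng1 (0.914).

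For Ccl9 they were Pf4 (0.940), the chemokine platelet factor, Tnf (0.914) and Serpinb8 (0.910), and for Ccl4 Il1rn (0.903), the interleukin-1 receptor antagonist, Jchain (0.869) and AI606473 (0.851). For Ccl5 they were Stap1 (0.963), Ap3s2 (0.948) and Mpo (0.937), the neutrophil peroxidase, which read 9.83 on normal replicate 3 and 6.17 to 7.86 on all other arrays. For Ccl3 they were En1 (0.974), Gsc (0.938) and Rnase2a (0.938). With each group centred, r stayed between 0.88 and 0.98 for all of these genes. Some of them hardly varied, with Tnf at 7.43 to 7.71 and Jchain at 4.79 to 5.23 over all arrays. Jchain, AI606473, Stap1 and Gsc lay below the array medians throughout, where values may be background. A high r there does not show that expression followed the member. The macrophage markers with the smallest p between groups were Cx3cr1 (-0.38 ± 0.17), Aif1 (-0.86 ± 0.49) and Laptm5 (1.12 ± 0.80), with limma adjusted p-values of 0.216, 0.327 and 0.431. Of the 22 macrophage markers, 20 had a positive difference and 2, Cx3cr1 and Aif1, a negative one, with a median of 0.41. On the CAF arrays Cx3cr1 read at most 6.05 and Aif1 at most 6.82, where values may be background. Aif1 reached 9.05 on the normal arrays.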
